A study of Mus musculus with 6 samples.

Results

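AGO2 target clusters of the miR-17-92 family were examined in P0 mouse whole brain. In chimeric eCLIP, AGO2 is crosslinked to RNA and immunoprecipitated, and the miRNA it holds is ligated to the RNA it was bound to, so that a chimeric read names both partners. A target cluster is a stretch of the genome in which such chimeric reads pile up, deposited with the name of a miRNA and a score. The members were all target clusters listed under any of 14 mature miRNAs (miR-17-5p, miR-20a-5p, miR-20b-5p, miR-93-5p, miR-106a-5p, miR-106b-5p, miR-18a-5p, miR-18b-5p, miR-19a-3p, miR-19b-3p, miR-92a-3p, miR-92b-3p, miR-25-3p and miR-363-3p), with each coordinate counted once per seed group. The seed groups are miR-17 (with miR-20, miR-93 and the miR-106 pair), miR-18, miR-19 and miR-92 (with miR-25-3p and miR-363-3p). There were 514 of 18029 target clusters in the WT library, and, for *Mov10* Deletion, 752 of 27152 and 317 of 12379 in the libraries of replicates 1 and 2. The rule used the miRNA name alone and no measured level.

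All libraries came from C57Bl/6J whole brain at P0. The WT group held 1 AGO2 IP library and the *Mov10* Deletion group held 2, replicates 1 and 2, written DEL1 and DEL2. *Mov10* Deletion mice carried a floxed *Mov10* allele, from which *Emx1*-Cre removes exons 6 and 7, over a germline null allele. *Emx1*-Cre acts in excitatory neurons of neocortex and hippocampus, while whole brain was immunoprecipitated, so the RNA also came from cells in which Cre does not act. The DEL libraries came from 2 brains, and the WT library from WT brain. With 1 WT library no test of genotype was possible, and genotype values are given side by side with no p-value.

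MiRNAs guide AGO2 to mRNAs mainly through the seed, nucleotides 2 to 8 counted from the 5′ end, which pairs with a complementary match that lies most often in the 3’UTR. The miR-17-92 hairpins are transcribed together as one primary transcript, and paralogous clusters lie in *Mcm7* and on the X chromosome. The mature miRNAs fall into 4 seed groups. The miR-17 seed is known for targets in the cell cycle and in TGF-β signalling, miR-19 for targets in growth factor signalling, and miR-92 for integrins, pro-apoptotic and progenitor genes. In embryonic brain the family is known for keeping neural progenitors dividing.

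The mature sequences are shown because the seed defines each group and because the few bases outside it are all that separates members of a group in a chimeric read. They are RefSeq sequences on GRCm38.p6, written 5′ to 3′, with the seed in capitals. The miR-17 group has these members:
miR-17-5p: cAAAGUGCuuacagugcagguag
miR-20a-5p: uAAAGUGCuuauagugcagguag
miR-20b-5p: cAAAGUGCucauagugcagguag
miR-93-5p: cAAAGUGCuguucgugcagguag
miR-106a-5p: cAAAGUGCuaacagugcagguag
miR-106b-5p: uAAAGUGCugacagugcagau
The miR-18 group differs from it by 1 base within the seed:
miR-18a-5p: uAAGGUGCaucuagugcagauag
miR-18b-5p: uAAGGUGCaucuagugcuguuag
The miR-19 group has these members:
miR-19a-3p: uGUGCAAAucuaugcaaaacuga
miR-19b-3p: uGUGCAAAuccaugcaaaacuga
The miR-92 group has these members:
miR-92a-3p: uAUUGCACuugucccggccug
miR-92b-3p: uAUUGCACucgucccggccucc
miR-25-3p: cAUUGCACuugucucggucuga
miR-363-3p: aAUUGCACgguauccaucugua
miR-17-5p and miR-106a-5p differed at 1 of 23 nt, and miR-19a-3p and miR-19b-3p at 1 of 23 nt. miR-17-5p and miR-20a-5p differed at 2 nt, as did miR-92a-3p and miR-92b-3p, whereas miR-92a-3p and miR-363-3p differed at 11 of the 21 nt compared. An assignment between such near-identical miRNAs may rest on a single base of a read.

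Some facts of the whole series bear on every value below. Read depth is unknown, since the target clusters carry a score whose unit is not given in the sources used here and that was at least 3 in each library. The boundaries of the target clusters were not called independently in the DEL libraries: where member clusters of these libraries overlapped, their coordinates were identical in 74 of 74 pairs, against 0 of 163 pairs between WT and DEL1 and 0 of 101 between WT and DEL2. Brain markers were present. All 6 neuronal marker genes had a target cluster of some miRNA in every library. The same held for 3, 2 and 3 of 3 astroglial markers in WT, DEL1 and DEL2, 2 of 5 progenitor markers in each, 1, 2 and 1 of 4 oligodendrocyte markers and 0, 1 and 0 of 4 microglial markers. Of 5 erythroid marker genes 4, 3 and 1 had a cluster, and of 4 endothelial ones 1, 2 and 2. Clusters of the endothelial miR-126a-3p numbered 30 in WT, 100 in DEL1 and 27 in DEL2, those of the erythroid miR-451a 5, 23 and 10, and their part in the results was not tested. The files hold no *Mov10* level: the *Mov10* gene held 11, 9 and 9 AGO2 clusters in WT, DEL1 and DEL2, and no target cluster in any library, so they do not check the genotype.

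To ask how much of the AGO2-bound target RNA was assigned to the family, its clusters were set against all target clusters of each library. The family took 2.85% of target clusters in WT (exact 95% interval 2.61 to 3.1), 2.77% in DEL1 (2.58 to 2.97) and 2.56% in DEL2 (2.29 to 2.85). The 3 intervals overlapped. With a score of at least 5 the shares were 1.86%, 2.46% and 2.11%, and with clusters of 1 seed only 2.02%, 2.38% and 2.3%, so that WT then lay below both DEL libraries. The share of the miR-17 group in WT, 1.71% below, was 0.948% at a score of at least 5. Such intervals cover counting error only, and target clusters of a library are not replicates. The miR-17 group was the largest, with 309 clusters in WT (1.71%, 1.53 to 1.91), 428 in DEL1 (1.58%, 1.43 to 1.73) and 193 in DEL2 (1.56%, 1.35 to 1.79). miR-19 followed with 139, 206 and 84 clusters (0.771%, 0.759% and 0.679% of the library). The miR-92 group had 51, 95 and 30 (0.283%, 0.35% and 0.242%) and miR-18 had 29, 35 and 13 (0.161%, 0.129% and 0.105%). The order of the groups was the same in each library, and the intervals of neighbours in that order overlapped only for the miR-92 group and miR-18, in WT and in DEL2.

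**Figure D1:**
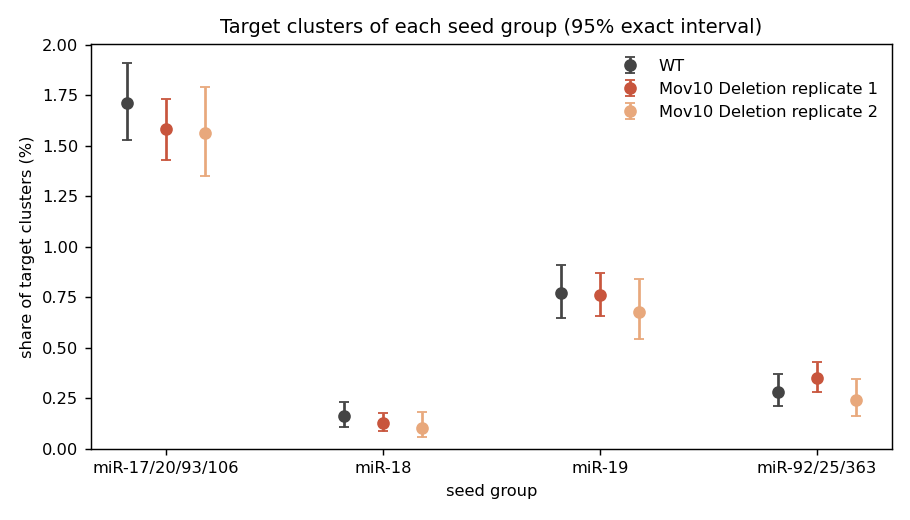
Share of all target clusters (%, y axis) assigned to each seed group (x axis) in the WT library and the 2 DEL libraries, where points are shares and bars exact 95% intervals. The miR-17 group lies between 1.56% and 1.71% and miR-18 between 0.105% and 0.161%, and within each group the bars of the 3 libraries overlap.

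Most member clusters had a score close to the lowest deposited, which was not particular to the family. The median over members was 3.99 in WT, 4 in DEL1 and 3.85 in DEL2. Over all target clusters it was 4.63, 4 and 4. The median score was 3.97, 4 and 3.8 for the miR-17 group in WT, DEL1 and DEL2, and between 3.71 and 4.49 for the other groups. A score of 10 or more was reached by 21, 27 and 2 clusters of the miR-17 group and by 10, 14 and 2 of miR-19. The share of all target clusters that reached such a score is not given here. In DEL2, the library with the fewest target clusters, the highest score of the miR-17 group was 13, against 27 in WT and 22 in DEL1. Scores are given below as deposited, with no scaling between libraries.

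Within the family, the assignments were divided among a few miRNAs. miR-17-5p had 151 clusters in WT, 175 in DEL1 and 74 in DEL2, miR-106b-5p had 112, 143 and 53, miR-20a-5p had 94, 99 and 48, and miR-93-5p had 67, 90 and 32. miR-106b-5p and miR-93-5p are encoded in the *Mcm7* locus. miR-19b-3p had 136, 185 and 77 clusters against 9, 26 and 9 for miR-19a-3p, although both carry the same seed. In the miR-92 group miR-92a-3p had 27, 40 and 8 clusters, miR-92b-3p had 20, 36 and 8, and miR-25-3p had 16, 23 and 15. miR-92a-3p led in WT and DEL1 and miR-25-3p in DEL2. miR-32-5p, which shares the miR-92 seed but lies at no locus of the family and was not a member, had 1, 7 and 9 clusters.

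The miRNAs encoded only on the X chromosome were at or near 0. miR-106a-5p was listed for 0, 1 and 1 clusters in WT, DEL1 and DEL2, miR-20b-5p for 0, 1 and 2, miR-18b-5p for 0, 1 and 1, and miR-363-3p for 0, 1 and 0. For each of them, 0 of 18029 WT clusters allows a share of up to 0.0205% (upper end of the exact 95% interval). By locus, the miRNAs found only on chromosome 14 (miR-17-5p, miR-18a-5p, miR-19a-3p and miR-20a-5p) had 283 assignments in WT, 334 in DEL1 and 143 in DEL2. Those of chromosome 5 (miR-106b-5p, miR-93-5p and miR-25-3p) had 195, 256 and 100, those found only on X had 0, 4 and 4, and miR-92b-3p of chromosome 3 had 20, 36 and 8. miR-19b-3p and miR-92a-3p, with 163, 225 and 85 assignments, are encoded on both chromosome 14 and X and cannot be assigned to a locus.

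**Figure D2:**
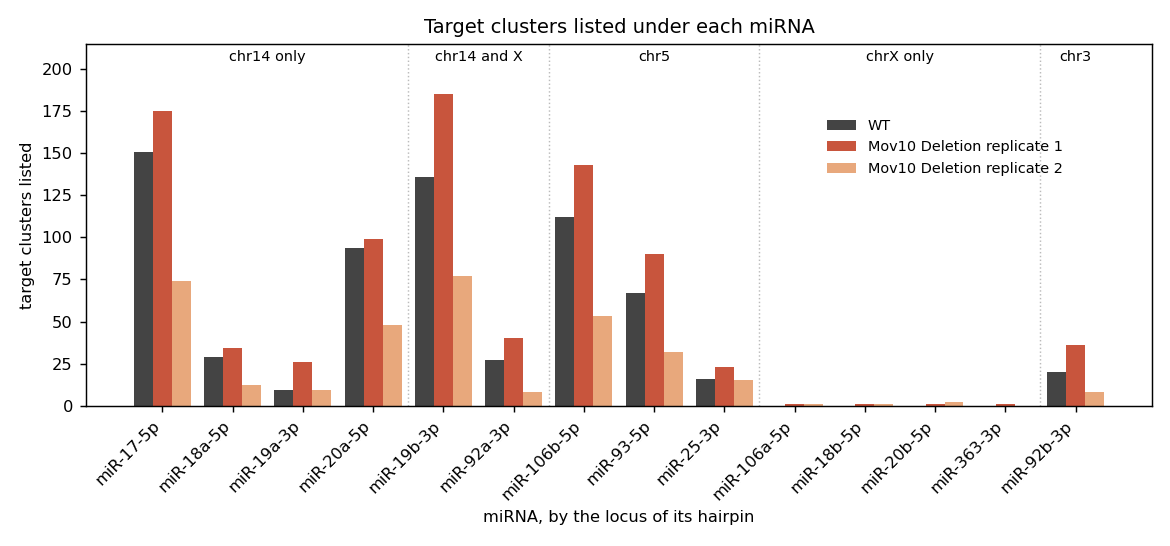
Number of target clusters listed under each of the 14 miRNAs (y axis, linear from 0), ordered along the x axis by the chromosome of the hairpin, with 1 bar per library. miR-17-5p, miR-19b-3p and miR-106b-5p stand highest, and the 4 miRNAs encoded only on X have between 0 and 2 clusters.

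AGO2 clusters over the hairpins themselves, a readout that does not come from chimeric reads, also set the X-linked hairpins apart. Each AGO2 cluster carries a log2 ratio of IP over size-matched input and its −log10 p. A cluster was taken as enriched where both were at least 3. Over *Mir17* on chromosome 14 (mm10 chr14:115043671-115043754) the highest log2 IP over input was 5.68 in WT, 4.17 in DEL1 and 4.08 in DEL2. Over *Mir106b* on chromosome 5 it was 6.66, 4.84 and 4.67, and over *Mir93* 6.31, 4.95 and 5.37. All of these were enriched. Over *Mir363*, *Mir92-2* and *Mir106a* on the X chromosome there was no AGO2 cluster in any library, and *Mir18b* was the only X-linked hairpin with an enriched one, in DEL1 alone (log2 4.71, −log10 p 5.54). All 6 hairpins of the chromosome 14 cluster had an enriched AGO2 cluster in WT, whereas *Mir19a* (log2 4.34, 2.61 and 2.69 in WT, DEL1 and DEL2) and *Mir92-1* (4.22, 1.67 and 2.78) did not in either DEL library. *Mir92-2* and *Mir19b-2* give the same mature miRNAs as hairpins of chromosome 14, and miR-106a-5p differs from miR-17-5p at 1 nt. Reads of these mature sequences alone may not tell the loci apart. The share of all AGO2 clusters that was enriched is not given here.

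Many coordinates were listed under more than 1 miRNA. Of the WT clusters of the miR-17 group, 79 of 309 (25.6%) were listed under several members of the group and 8 under 4 of them, against 54 of 428 (12.6%) in DEL1 and 14 of 193 (7.25%) in DEL2. miR-17-5p with miR-20a-5p was the most frequent pair in WT, at 38 coordinates. In the miR-92 group the shares were 21.6%, 5.26% and 3.33%. miR-19a-3p and miR-19b-3p shared only 6 of 139, 5 of 206 and 2 of 84 coordinates.

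Member clusters were also listed with miRNAs of other seeds. This held for 31.1%, 16.6% and 12.4% of the clusters of the miR-17 group in WT, DEL1 and DEL2, for 65.5%, 20% and 7.69% of the miR-18 clusters, for 46%, 27.2% and 15.5% of miR-19 and for 41.2%, 25.3% and 30% of the miR-92 group. Among clusters of other miRNAs, pooled and including coordinates shared with members, it held for 10.2%, 6.28% and 4.3%. A coordinate with several seeds counts in each of its seed groups but once in that pool, so these shares are not alike. No other single family was set beside them, so the higher shares are not shown to be particular to this family. The most frequent partner was miR-124-3p, the leading neuronal miRNA, at 55 WT clusters of the miR-17 group, 35 of miR-19, 13 of the miR-92 group and 10 of miR-18, in a library where it was listed at 9312 of 18029 target clusters. miR-19 also shared coordinates with miR-301a-3p (18, 14 and 3) and miR-130a-3p (15, 9 and 3), whose seed AGUGCAA overlaps that of miR-19. A gene listed under miR-19 at such a coordinate may carry a match that serves both seeds.

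Member clusters lay on enriched AGO2 clusters more often than target clusters as a whole, with less of a difference where they were listed under 1 seed alone, and neither was tested, since an exact paired test over 3 libraries cannot pass the usual threshold. In WT 129 of 514 (25.1%, 21.4 to 29.1) overlapped one, against 15.0% of all WT target clusters. In DEL1 it was 133 of 752 (17.7%, 15 to 20.6) against 11.7% of all, and in DEL2 it was 54 of 317 (17%, 13.1 to 21.6) against 12%. By group the shares were 24.3%, 17.5% and 19.2% for the miR-17 group, 29.5%, 20.9% and 14.3% for miR-19, 19.6%, 14.7% and 13.3% for the miR-92 group and 37.9%, 8.57% and 7.69% for miR-18, the last from 11 of 29, 3 of 35 and 1 of 13 clusters. let-7 and miR-98 gave 26.9%, 16.6% and 16.7%, and miR-181 gave 19.2%, 11.7% and 8.86%. Where only clusters listed under 1 seed were kept, a choice made after seeing the data, the members' share was 14.6% (11 to 18.9) in WT against 12.1% (11.6 to 12.7) for clusters without a member miRNA, 10.9% (8.52 to 13.6) against 9.92% in DEL1 and 12.1% (8.47 to 16.6) against 10.7% in DEL2. In that subset the background value lay inside the members' interval in DEL1 and DEL2 and in WT alike.

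Member clusters also lay more often near the 3′ end of genes. Of the WT members, 161 of 514 (31.3%, 27.3 to 35.5) had their centre in the last 1000 nt of a gene, against 17.4% of all WT target clusters. The values were 143 of 752 (19%, 16.3 to 22) against 13.1% in DEL1 and 67 of 317 (21.1%, 16.8 to 26) against 14.3% in DEL2. The miR-17 group had 29.8%, 16.1% and 18.1%, and miR-18 had 27.6%, 11.4% and 30.8%, in DEL1 (4 of 35) below the whole of the target clusters. The miR-92 group had 39.2%, 18.9% and 30% and miR-19 had 33.1%, 27.7% and 23.8%, whereas let-7 had 14.3%, 10.7% and 13.2%. miR-181 gave 27.3%, 17.8% and 16.6%, so other seeds also lay above the whole of the target clusters. Nearly all members lay in a gene on its sense strand (97.7%, 98% and 97.8%), as did target clusters as a whole (97.5%, 97.7% and 97.7%).

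**Figure D3:**
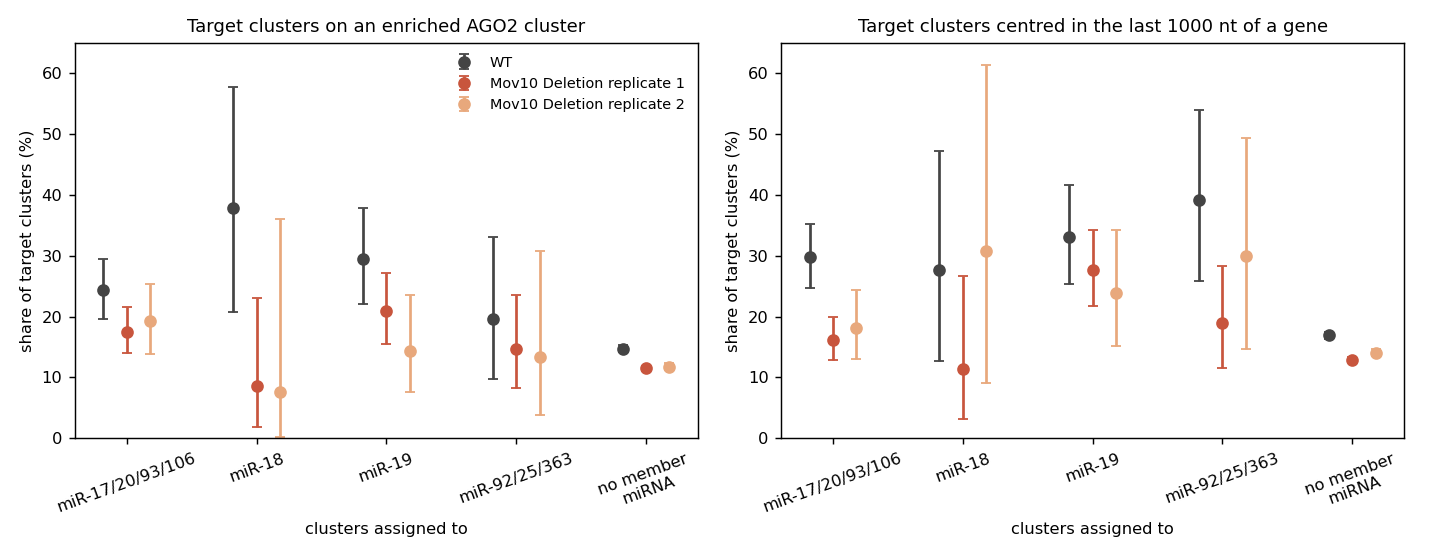
Share (%, y axes from 0) of target clusters of each seed group and of clusters with no member miRNA that overlap an enriched AGO2 cluster (left) or have their centre in the last 1000 nt of a gene (right), with exact 95% intervals, for each library. For the miR-17 group and miR-19 the WT points (24.3% and 29.5% at left, 29.8% and 33.1% at right) lie above those of clusters with no member miRNA (14.7% and 17%), and the wide bars of miR-18 rest on 13 to 35 clusters.

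Seed matches are a property of the target RNA that the rule did not use. Clusters that could be placed in the last exon of a gene were searched, with 10 nt added on each side, for the 7-nt match to nucleotides 2 to 8. The letters searched on the sense strand alone were GCACTTT for the miR-17 group, GCACCTT for miR-18, TTTGCAC for miR-19 and GTGCAAT for the miR-92 group. The first and second differ by 1 base, and a miR-19 match can run into a miR-17 match. Placement counted nucleotides back from the gene end, since the genome of the files' build was not used here, and it was added after seeing the data. The distance to the RefSeq gene end was applied to the GENCODE gene end of the same symbol. Whether the ends agree was not checked, and where they differ the window searched is shifted off the cluster. The own match was found in 65 of 165 WT clusters of the miR-17 group (39.4%, 31.9 to 47.3), 50 of 162 in DEL1 (30.9%, 23.9 to 38.6) and 18 of 76 in DEL2 (23.7%, 14.7 to 34.8). The same letters were in 1.17%, 1.21% and 1.31% of placed clusters with no member miRNA. For miR-19 it was 46 of 91 (50.5%, 39.9 to 61.2), 34 of 98 (34.7%) and 15 of 47 (31.9%), against 1.65%, 1.56% and 1.77%. For the miR-92 group it was 14 of 36 (38.9%), 13 of 44 (29.5%) and 8 of 18 (44.4%), against 0.701%, 0.62% and 0.598%. For miR-18 it was 6 of 19, 2 of 11 and 2 of 5, against 0.654%, 0.448% and 0.626%.

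In each library and group the match of the own seed was the most frequent of the 4, though miR-18 rests on few clusters. No placed cluster of the miR-92 group held a miR-17, miR-18 or miR-19 match in any library, and 1, 0 and 0 of the clusters of the miR-17 group held a miR-92 match in WT, DEL1 and DEL2. The miR-19 match was found in clusters of the miR-17 group at 16 of 165, 12 of 162 and 4 of 76, and the miR-17 match in clusters of miR-18 at 3 of 19, 1 of 11 and 1 of 5. Among clusters listed under 1 miRNA of the miR-17 group only, the match was in 22 of 38 WT clusters of miR-106b-5p (57.9%, 40.8 to 73.7) and in 7 of 36 of miR-17-5p (19.4%, 8.19 to 36). For the same miRNAs it was in 14 of 38 and 14 of 49 in DEL1 and in 4 of 16 and 2 of 22 in DEL2, with overlapping intervals in both. miR-20a-5p had it in 9 of 26, 7 of 19 and 5 of 17 clusters in WT, DEL1 and DEL2, and miR-93-5p in 4 of 12, 2 of 23 and 2 of 10. miR-25-3p had it in 8 of 11, 7 of 15 and 5 of 9 clusters in WT, DEL1 and DEL2, and miR-92a-3p in 2 of 10, 1 of 17 and 1 of 4. Clusters listed under miR-19a-3p alone never held it (0 of 1, 0 of 9 and 0 of 1), against 44 of 86, 31 of 85 and 14 of 44 for miR-19b-3p alone.

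**Figure D4:**
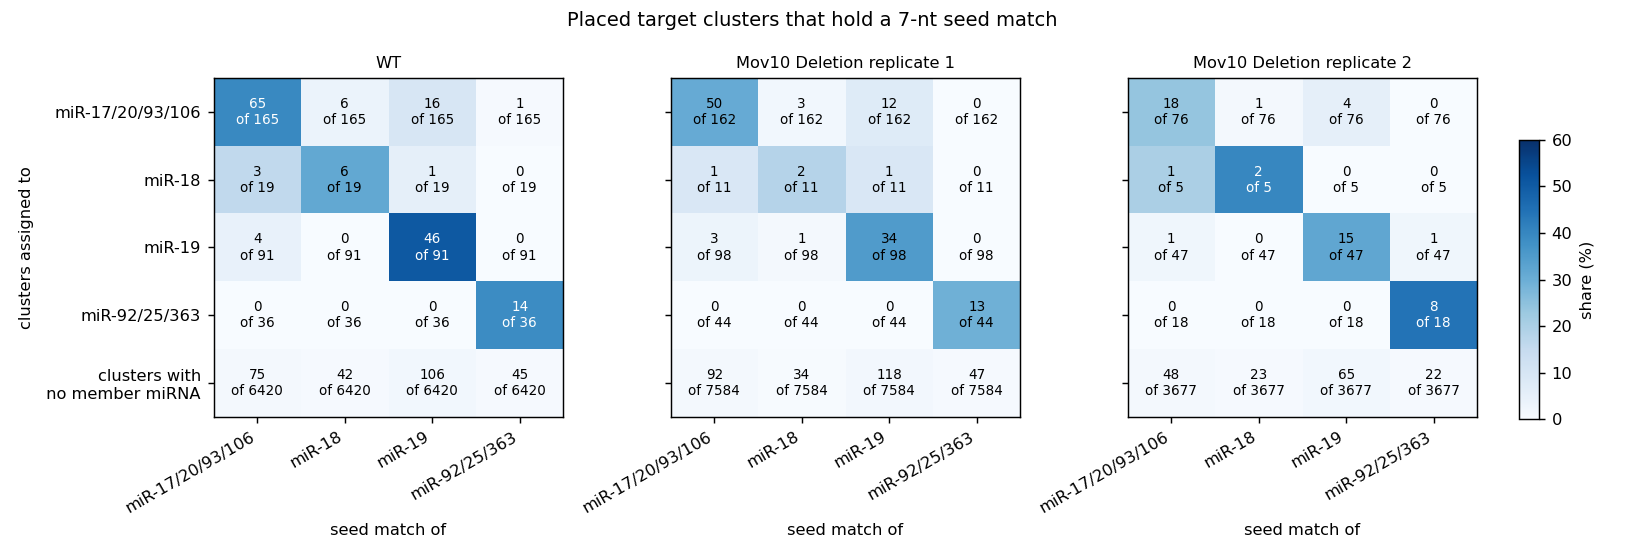
Number and share (colour scale, %) of placed target clusters of each assigned seed group (y axis) that hold the 7-nt match of each seed (x axis), 1 panel per library. Own matches on the diagonal reach 65 of 165 for the miR-17 group and 46 of 91 for miR-19 in WT, while clusters with no member miRNA, in the lowest line of each panel, stay under 2%.

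The share with an own match was lower in both DEL libraries than in WT for the miR-17 group and miR-19, but so it was for 15 of the 20 seed families with placed clusters in each library, among the 21 with at least 30 placed clusters in WT. The median over families was 32.3% in WT, 24.3% in DEL1 and 25.4% in DEL2. In WT miR-19 ranked 5 of 21, the miR-17 group ranked 8 and the miR-92 group ranked 9. Their ranks were 7, 8 and 9 in DEL1 but 7, 12 and 2 in DEL2, where the miR-92 group had 18 placed clusters. The families leave out miR-124-3p, listed at 9312 of 18029 WT target clusters, since its mature sequence was not in the reference used. The shared boundaries and smaller widths of the DEL clusters (members' median 66 and 68 nt, against 86 in WT) move with this difference. With a window of 81 nt around each centre, of equal width in all libraries, the shares were 36.4%, 30.2% and 19.7% for the miR-17 group and 42.9%, 31.6% and 34% for miR-19, again highest in WT. The part of the shared boundaries was not tested. For the miR-17 group the match was in 35.3%, 22.7% and 25% of clusters at a score of 5 or more and in 44.4%, 33.3% and 14.3% at a score of 3, in WT, DEL1 and DEL2, so the order of the 2 classes was not the same in each library. For miR-19 it was 23 of 38, 18 of 37 and 10 of 16 at a score of 5 or more.

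The placed clusters gave 212 distinct matches in 195 genes, 200 of them in a 3’UTR. In WT the matched site lay within 20 nt of the cluster centre at 74.2% of sites of the miR-17 group. The share was 64.6% for miR-19 and 53.3% for the miR-92 group. Matches were searched only within the cluster and its flanks, which by itself places many of them close to the centre. The share expected from that search was not computed, so whether sites favour the centre was not tested. The base after the match, which faces the first nucleotide of the miRNA and is often A in effective sites, was A at 24 of 27 sites of the miR-92 group (88.9%, 70.8 to 97.6), against 30.9% of all such matches in the longest 3’UTR of each gene. It was A at 55 of 104 sites of the miR-17 group (52.9%, 42.8 to 62.8), against 26.1%, and at 40 of 66 of miR-19 (60.6%, 47.8 to 72.4), against 44.2%. Sites in different genes of 1 library share that library.

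Of these sites, 15 lay in a cluster of their seed group in all 3 libraries, 40 in 2 and 157 in 1. Of the 15, 14 are shown, each with 14 bases before and 2 after the match in capitals, since they are the positions seen most often, and this selection was made after seeing the data. Sequences are from GENCODE vM39 transcripts, and positions of the match are those of GRCm39. Those of the miR-17 group were:
*Capn15*, chr17:26178467-26178473, minus strand: ctgcccccctacatGCACTTTat
*Midn*, chr10:79992860-79992866, plus strand: tgtagattctccaaGCACTTTac
*Ptpn4*, chr1:119587421-119587427, minus strand: acttcagcactactGCACTTTat
*Rnf152*, chr1:105207676-105207682, minus strand: aactttgcacaaagGCACTTTtt
*Wnk3*, chrX:150099301-150099307, plus strand: ttcactgtcaagttGCACTTTac
Those of miR-19 were:
*Cacul1*, chr19:60514641-60514647, minus strand: tccctcaggaacagTTTGCACac
*Cacul1*, chr19:60514672-60514678, minus strand: tgtcaggttgcaaaTTTGCACac
*Enc1*, chr13:97387775-97387781, plus strand: ggatggtcgtatgtTTTGCACat
*H19*, chr7:142129561-142129567, minus strand: tacccccttttgaaTTTGCACta
*Jarid2*, chr13:45073513-45073519, plus strand: ggatacaagctgtcTTTGCACta
*Mycn*, chr12:12986971-12986977, minus strand: acagtcactgccacTTTGCACat
*Pik3r3*, chr4:116157122-116157128, plus strand: cgtagactgcttgtTTTGCACaa
Those of the miR-92 group were:
*Lmbr1l*, chr15:98802000-98802006, minus strand: ttacatgatttgatGTGCAATag
*Nefl*, chr14:68325303-68325309, plus strand: agacctcgagttatGTGCAATaa
In *Rnf152* a miR-19 match, TTTGCAC, lies just before the miR-17 match. *Cacul1* has 2 miR-19 matches under 1 cluster. All but the sites in *Rnf152*, *H19* and *Jarid2* are followed by A.

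Target genes of the miR-17 group in all libraries were led, by their lowest score, by *Wnk3*, *Ptpn4*, *App*, *Capn15* and *Epha4*. *Wnk3*, a kinase that controls cation-chloride cotransporters, had scores of 20.1 in WT, 20.3 in DEL1 and 13 in DEL2, listed under miR-106b-5p. Its cluster lay on an enriched AGO2 cluster in each (log2 3.66, 3.71 and 3.25). *Ptpn4*, a tyrosine phosphatase of neurons, had scores of 17.8, 15.1 and 8.62 at mm10 chr1:119659628-119659730 in WT, with all 4 common miRNAs of the group listed there. *Capn15*, a calpain-family protease, was the only one of the 5 with its lowest score in WT (8, 18.8 and 10.7), and its cluster was enriched in AGO2 in each library (log2 3.82, 5.29 and 4.16). *Epha4*, an ephrin receptor of axon guidance, had 17.6, 16.5 and 6.78, with enriched AGO2 clusters (log2 4, 5.1 and 3.88) but no match was placed there. Only clusters placed in the last exon were searched, by gene ends that were not compared between annotations, so a match there may have been missed.

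*App*, which encodes the amyloid precursor protein and is a textbook target of the miR-17 seed, had the highest score of the group in WT (27) and DEL1 (22). In DEL2 it had 8, below the 13 of *Wnk3*. Its WT cluster lay at mm10 chr16:84954522-84954643, with its centre 1916 nt before the gene end. The AGO2 cluster under it was below the cut-off in each library (log2 1.42, 2.63 and 1.16). No seed match was placed there, which, as for *Epha4*, does not show that none was present. A high chimeric score and AGO2 enrichment over input thus did not go together at *App*, while they did at *Wnk3* and *Ptpn4*. In the same group *Gigyf1*, a factor of translational repression (score 13), and *Znfx1*, a helicase of antiviral sensing (10.7), had the highest WT scores among genes without a cluster of the group in either DEL library. *Kif1a*, the kinesin motor of synaptic vesicle precursors, had 10.8 in DEL1 and 6.83 in DEL2 and none in WT. *Kcnk10*, a background potassium channel, had 12 and 6 and none in WT, with a seed match at nucleotide 2766 of its 3’UTR.

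miR-18 had 1 gene in all libraries. *Zbtb37*, a BTB zinc finger gene, had scores of 13.5 in WT, 9 in DEL1 and 5.53 in DEL2, on AGO2 clusters below the cut-off (log2 2.71, 1.99 and 1.08). *Gigyf1* (12.9) and *Spryd3* (11.6) led the genes with a miR-18 cluster in WT alone. At *Gigyf1* the miR-18 and miR-17 clusters had the same coordinates (mm10 chr5:137525841-137525948), and the window held both matches, at nucleotides 161 and 185 of the 3’UTR. No gene had a miR-18 cluster in both DEL libraries and none in WT.

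miR-19 was led by *H19*, the imprinted long non-coding RNA that is abundant in fetal tissue. Its scores were 37.6 in WT, 36.3 in DEL1 and 11.2 in DEL2, for a cluster 292 nt from the gene end in WT (mm10 chr7:142575788-142575857). The AGO2 cluster there had a log2 IP over input of 8.19, 7.36 and 6.86, with −log10 p at the deposited limit of 400 in each library. The cluster was also listed under 13, 11 and 11 miRNAs outside the group. *Shank1*, a scaffold of the postsynaptic density, had 24.8, 20.4 and 7.63, on AGO2 clusters below the cut-off (log2 1.83, 2.26 and 2.32). *Enc1*, an actin-binding kelch protein of neurons, was nearly level among libraries (9.89, 10.9 and 9.68) and was listed under miR-19b-3p alone. *Cacul1*, a cullin-domain cell cycle gene, had 6.9, 6.78 and 5 on enriched AGO2 clusters (log2 5.46, 4.61 and 4.65).

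*Mycn* and *Jarid2*, which also had a miR-19 site in all libraries, were named after their values were seen. *Mycn*, the MYC-family factor of neural progenitors, had 7.57 in WT, 7.73 in DEL1 and 3 in DEL2, at a match 30 nt into its 3’UTR. *Jarid2*, a component of Polycomb repressive complex 2, had 4.5, 6.26 and 5. Among genes with a miR-19 cluster in WT alone, *Crebrf* (11.1) and *Sybu*, the syntaxin-kinesin linker syntabulin (9.47), had the highest scores and enriched AGO2 clusters (log2 4.64 and 3.56). *Zfp462* (6.66 and 5) and *Tnrc6b*, a GW182 protein that binds AGO2 (6 and 4.94), had one in both DEL libraries and none in WT, but at different positions in the 2 libraries. The *Zfp462* clusters lay 32342 nt before the gene end in DEL1 and 75023 nt before it in DEL2.

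Genes of the miR-92 group in all libraries had lower scores, apart from 18S rRNA. *Ctnnb1*, which encodes β-catenin, had 9.8 in WT, 4 in DEL1 and 11.4 in DEL2, listed under miR-92b-3p in the first 2 and under miR-92a-3p in the third. Its cluster lay 9591 nt before the gene end in WT and was on no enriched AGO2 cluster in any library. There was no AGO2 cluster under it in WT, and the log2 was 1.89 in DEL1 and 4.06 in DEL2. In DEL2 only the −log10 p, 2.93, was below the cut-off. *Rev3l*, the catalytic subunit of DNA polymerase ζ, had 5.35, 8.93 and 3 on enriched AGO2 clusters (log2 4.27, 3.27 and 3.98). *Lmbr1l* had 9.29, 7 and 4 with strong AGO2 enrichment (log2 7.2, 6.39 and 6.87). *Nefl*, the light neurofilament subunit, had 3, 3.84 and 3.39, close to the lowest score, with AGO2 log2 values of -0.606, 0.0215 and 0.554, yet the same site under miR-25-3p in each library. *St6gal2*, a sialyltransferase (7.36), and *Nfib*, a transcription factor of cortical development (6.38), led the genes with a cluster in WT alone. *Eif4g2*, a translation initiation factor (3.49 and 3), and *Kcnip4*, a potassium channel-interacting protein (3.84 and 3), were found in both DEL libraries but not in WT, *Kcnip4* at different positions in each. The *Kcnip4* clusters lay 622370 nt before the gene end in DEL1 and 1124490 nt before it in DEL2.

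The highest scores of the miR-92 group (73.8, 35.2 and 17.3) lay on *Rn18s-rs5*, a copy of 18S rRNA on chromosome 17. It also carried miR-19 clusters (11.7, 6 and 5.66). The 10, 8 and 8 member clusters on this gene were listed under between 5 and 71 miRNAs each, and no AGO2 value was given at the highest-scoring ones. Without them the family's share was 2.8%, 2.74% and 2.5% in WT, DEL1 and DEL2.

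**Figure D5:**
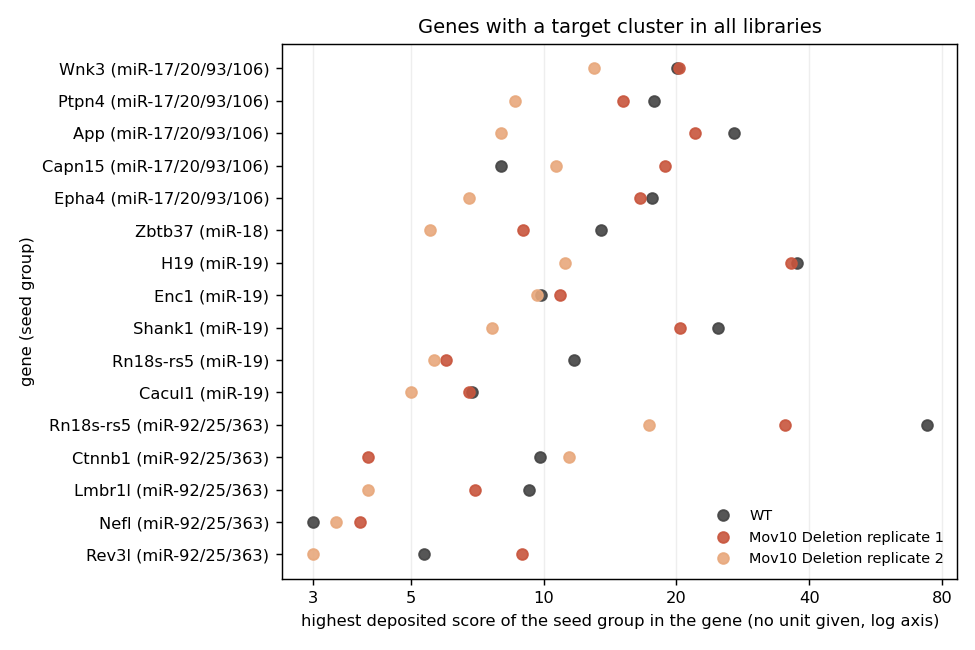
Highest deposited score (x axis, log scale, no unit given) of the seed group in each gene with a cluster of that group in all libraries, up to 5 genes per group (y axis), 1 point per library. DEL2 has the lowest point at most genes, with *Capn15*, *Ctnnb1* and *Nefl* as exceptions, and *Enc1* lies between 9.68 and 10.9.

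To ask whether the same genes were hit in each library, target genes were compared. The family had a cluster in 1072 genes, of which 464 were in WT, 642 in DEL1 and 284 in DEL2. Of these, 75 genes (7%, 5.54 to 8.69) were in all libraries, against 39.9% of the 9495 genes with a target cluster of any miRNA. In WT alone there were 251 (23.4%, 20.9 to 26.1), against 7.79%, and in both DEL libraries but not in WT there were 30 (2.8%, 1.9 to 3.97), against 6.62%. Genes of any miRNA can recur through different miRNAs, so let-7 and miR-98 are set beside them, with 10.8%, 15.1% and 6.13%, and miR-181 with 6.11%, 17.4% and 3.93%. With a cluster asked of 1 DEL library only, 168 to 470 genes were in *Mov10* Deletion and not in WT. By group, 46 of 656 genes of the miR-17 group, 11 of 331 of miR-19, 5 of 137 of the miR-92 group and 1 of 66 of miR-18 were in all libraries, and 163, 81, 29 and 22 in WT alone.

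The DEL libraries shared fewer positions with each other than either did with WT. Of the WT members, 29.2% overlapped a cluster of the same seed group in DEL1 and 17.8% in DEL2. Of those in DEL1, 20.7% recurred in WT and 9.69% in DEL2. Of those in DEL2, 30% recurred in WT and 23.1% in DEL1. For other seeds the 6 values were 32.2%, 17.3%, 19.6%, 9.55%, 23.6% and 22%. Of the WT clusters of the miR-17 group, 42 of 309 recurred in both DEL libraries, as did 13 of 139 of miR-19, 7 of 51 of the miR-92 group and 1 of 29 of miR-18. For member positions, agreement between the libraries of the same genotype was thus no higher than that across genotypes. Such shares also depend on the number and width of clusters in each library, which were not matched. By gene, 37% of the family's DEL2 genes were in DEL1 and 40.8% in WT. For let-7 and miR-98 it was 50.4% and 41.3%, and for miR-181 33.5% and 27.7%, the other way round. No gene is given here as a target of 1 genotype.

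Few genes were hit by several groups. In WT 25 genes carried clusters of 2 seed groups, and only *Nfib* and *Rn18s-rs5* carried more (3 and 4 groups). In DEL1 there were 39 genes with 2 groups, while *Mef2c*, a transcription factor of excitatory neurons, and *Nrxn3*, a presynaptic adhesion protein, had 3. In DEL2 there were 6 genes with 2.

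Known targets of the family were counted next. Of 21 textbook targets of the miR-17 seed, 8 had a cluster of that group in some library, with 5, 6 and 1 in WT, DEL1 and DEL2, while 16, 17 and 12 of the 21 had a cluster of any miRNA. Of all genes with a cluster of any miRNA, 4.54% (290 of 6388) had one of the miR-17 group in WT, 4.92% (382 of 7758) in DEL1 and 3.18% (172 of 5416) in DEL2. *Tgfbr2*, the type II TGF-β receptor, had scores of 3.8 and 3 in WT and DEL1 on enriched AGO2 clusters (log2 3.84 and 3.97). *Itgb8*, an integrin subunit, had 6.99 and 4, also on enriched AGO2 clusters (3.84 and 3.84). *E2f1*, the cell cycle transcription factor that is a classic target, had 3.02 in DEL1 alone, on an enriched AGO2 cluster (log2 4.71) and with a seed match at nucleotide 470 of its 3’UTR. *Rb1* (3) and *Ccnd1*, cyclin D1 (3.05), were found in WT alone, and *Trp53inp1* (3.93) and *Zbtb4* (4) in DEL1 alone. The *Rb1* cluster had its centre 101640 nt before the gene end, with no AGO2 cluster under it.

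For the other seeds, 3 of 9 textbook miR-19 targets, 1 of 13 of the miR-92 group and 0 of 6 of miR-18 had a cluster of that seed in some library. Per library, of the targets with a cluster of any miRNA, it was 1 of 7, 2 of 8 and 1 of 7 for miR-19. For the miR-92 group it was 1 of 6, 0 of 9 and 0 of 7, and for miR-18 0 of 3, 0 of 5 and 0 of 3. Of all genes with a cluster of any miRNA, 129 of 6388 had one of miR-19 in WT, 186 of 7758 in DEL1 and 80 of 5416 in DEL2. For the miR-92 group 48, 87 and 28 of these genes had one, and for miR-18 27, 33 and 12. With so few targets the 0 of miR-18 cannot be told from that background. *Socs1*, an inhibitor of cytokine signalling, had a miR-19 score of 10 in DEL1, on an enriched AGO2 cluster (log2 5.05). *Rhob*, a small GTPase, had 7.4 in WT and 3.79 in DEL2. *Slc12a5*, the neuronal chloride exporter KCC2, had a miR-25-3p score of 3 in WT, over a window with miR-92 matches at nucleotides 1803 and 1898 of its 3’UTR.

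Pathway lists are set against all genes with a cluster of any miRNA, of which 7.26% had one of the family in WT, 8.28% in DEL1 and 5.24% in DEL2. Of 17 genes of the PI3K pathway 4 had a cluster of the family in some library (2 of 13, 3 of 13 and 2 of 11 of those with a cluster of any miRNA), and *Pik3r3*, a regulatory subunit of PI3K, was the only one in all libraries, with miR-19b-3p scores of 13.7, 9.83 and 5 at a match 93 nt into its 3’UTR. *Pik3r1* had 5 under miR-17-5p in DEL1. Of 17 TGF-β and BMP genes 5 had a cluster (3 of 16, 3 of 16 and 0 of 13), among them the receptors *Acvr2a* (6.01) and *Acvr1* (4.87) in DEL1 and *Smad5* and *Smad7* (3 each) in WT. No AGO2 cluster lay under those of *Acvr2a*, *Acvr1* and *Smad7*, and that of *Acvr2a* was 32105 nt before the gene end. Of 20 RB and E2F genes 3 had a cluster of the family (2 of 11, 1 of 14 and 0 of 9). None of 12 BH3 and BCL2-family genes had one in any library, with 5, 4 and 3 of them having a cluster of some miRNA, too few for a share near the background to be told from 0, and neither did *Mcm7* or the other 2 host genes. Of 13 progenitor and neuron transcription factors 4 had one in some library (2 of 8, 1 of 8 and 3 of 6). Among them were *Bcl11b* (4.96, miR-25-3p) in WT and *Sox2* (3.53) in DEL2. *Neurod2* had one in DEL1 (3.95, miR-18a-5p) and, at another position, in DEL2 (5.94, miR-106b-5p). The background shares are per library and compare with the counts in brackets, not with those over all libraries. Not detected here means no target cluster at this depth.

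Over whole 3’UTRs the own match was again more frequent in genes of each group. In WT it was in 54% (47.9 to 59.9) of 278 genes of the miR-17 group, 66.1% (56.8 to 74.6) of 118 of miR-19, 61.4% (45.5 to 75.6) of 44 of the miR-92 group and 52% (31.3 to 72.2) of 25 of miR-18. Among genes with a cluster of any miRNA the same letters were in 23.3%, 21.6%, 12.9% and 15.1%, and among all 20949 genes with a 3’UTR in 14.2%, 13.3%, 7.93% and 10.1%. In WT the matches of the other groups also lay above the shares of genes of any miRNA, though below the own match. The miR-17 match, for one, was in 38.1% of miR-19 genes, so the excess was not of the own match alone. In DEL1 and DEL2 the values were 43.3% and 41.6% for the miR-17 group, 39.9% and 41.1% for miR-19, 38.6% and 59.3% for the miR-92 group and 16.7% and 36.4% for miR-18. For the miR-17 group the intervals did not overlap between genes of the group and genes of any miRNA in any library. For miR-18 the value of genes of any miRNA lay within the group's interval in DEL1 (14.9%, within 5.64 to 34.7) and DEL2 (15.7%, within 10.9 to 69.2). The miR-18 genes of DEL1 held the miR-17 and miR-19 matches (36.7% each) more often than their own, and those of DEL2 the miR-17 match (45.5%).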

How the data were processed

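AGO2 chimeric eCLIP clusters of 1 WT library and 2 *Mov10* Deletion libraries (DEL1 and DEL2, replicates 1 and 2) were analysed, while the 3 input samples were used only as the denominator of the authors' deposited IP over input ratios. Per the methods, the authors removed molecular identifiers and PCR duplicates with UMI-tools 1.1.1, trimmed adapters with cutadapt 3.2, discarded reads on repeats and rRNA, mapped to mm10 with STAR 2.7.7a and called clusters with CLIPper. For target clusters the authors matched miRNAs with Bowtie 1.2.3 to unmapped reads and placed the rest of each read on the genome. The authors deposited the IP over input of each AGO2 cluster as log2 and its p-value as −log10 p. The deposited score of a target cluster is not described in the sources used here, and the read depth is unknown.

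Coordinates of clusters are mm10 and those of sites GRCm39, none converted. Clusters were assigned to RefSeq gene bodies on GRCm38.p6 of the same strand (49997 genes, 90.6% with a strand), with overlapping genes each credited. The strand came from RefSeq where given, and otherwise from GENCODE vM39 by Ensembl identifier, symbol or synonym. Enriched AGO2 clusters had log2 and −log10 p of at least 3 and overlapped the target cluster by at least 1 nt. Seed matches came from GENCODE vM39 transcripts, by counting back from the gene end, taken as the same in RefSeq and GENCODE without a check. Shares have exact Clopper-Pearson 95% intervals (SciPy 1.17.1, pandas 2.3.3, numpy 2.4.6, matplotlib 3.10.9, Python 3.11.15). Matching and overlap counts were tested on simulated data. With 1 WT library no test between genotypes was run.

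Genes were named by a rule: for each seed group, up to 5 genes in all libraries with the highest lowest score, the 2 with the highest score in WT alone and the 2 with the highest lower score in both DEL libraries alone, plus the members of the gene lists with a cluster. *Midn*, *Rnf152*, *Mycn* and *Jarid2* (sites in all libraries), and *Mef2c* and *Nrxn3*, were named after their values were seen. The members, lists and rules were chosen with earlier results of these data known. Alternatives were a score of at least 5, clusters of 1 seed only, all assignments as denominator, other thresholds of enrichment, overlap, terminal length and gene assignment, the 6-nt match, a shorter 3’UTR and leaving out each DEL library. A few genes of the lists and 1 site are not reported here.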

Additional observations from a re-analysis of the deposited data

How the results depend on the processing

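No paired analysis was possible because the groups share only 1 replicate number and no result comes from a test. Of 141 values recomputed for 51 results, 92 stayed within the interval of the reported value or within 1.5 times its count. With a score of at least 5, the family's share was 1.86% in WT, 2.46% in DEL1 and 2.11% in DEL2, the miR-17 group had 0.948%, 1.4% and 1.32%, miR-18 had 0.0985% in WT and 0.085% in DEL1, and miR-19 had 0.615% in WT. With clusters of 1 seed only, the family's share was 2.02% in WT and 2.38% in DEL1, the miR-17 group had 1.31% and 1.4%, miR-18 had 0.0617% in WT, miR-19 had 0.463% and 0.589%, and the miR-92 group had 0.185% and 0.279%. Under both settings the family's share in WT lay below that in DEL1, the opposite of the order with all clusters. Without either DEL library, the *Mov10* Deletion share ranged from 2.56% to 2.77% for the family, 1.56% to 1.58% for the miR-17 group, 0.105% to 0.129% for miR-18, 0.679% to 0.759% for miR-19 and 0.242% to 0.35% for the miR-92 group.

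The share on enriched AGO2 clusters was 49.7%, 24.6% and 22% at a score of at least 5 in WT, DEL1 and DEL2, where clusters with no member miRNA had 24.4%, 19% and 20.8%. It was 14.6%, 10.9% and 12.1% with clusters of 1 seed only, a setting added after seeing the data. In the last 2000 nt of genes lay 45.3%, 29% and 35.3%, by construction more than in 1000 nt. At a score of at least 5, 72 genes were in WT only, 13 in both DEL libraries only and 23 in all libraries. Without either DEL library, 292 to 348 genes were in WT only, 168 to 470 in *Mov10* Deletion only and 116 to 172 in all, since fewer libraries are asked for. The 3’UTR matches of WT genes were 86.3%, 88%, 84.7% and 79.5% with the 6-nt match and 29.6%, 28%, 33.1% and 34.1% with the shortest 3’UTR (miR-17 group, miR-18, miR-19 and miR-92 group). Apart from these settings' own construction, the cause was not tested. Of the placed clusters, 6 further shares moved, among them that of the miR-92 group in DEL2, which was 0% of 4 clusters at a score of at least 5. The single WT library and the few clusters of miR-18 limit what can be compared.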
